A study of Mus musculus with 12 samples.

Results

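The 10 genes described here encode 6 matrix metalloproteases (Mmp8, Mmp9, Mmp12, Mmp13, Mmp14 and Mmp19), 2 tissue inhibitors of metalloproteases (Timp1 and Timp2) and 2 membrane-anchored ADAM proteins (Adam8 and Adam17). They were chosen by name from 47937 genes counted in mouse macrophages, with earlier results of these data known. Ensembl identifiers had been matched to symbols without their version. All 10 were found, and all 10 were among the 11760 genes with enough reads to be tested. In resting macrophages (M0) Mmp12 and Adam8 were the most abundant of these mRNAs per length, while Mmp14 and Timp1 were close to the limit of detection. Stimulation with IFNγ + LPS raised Mmp14 134-fold, Timp1 40.1-fold and Mmp13 7.21-fold, and it lowered Mmp12 and Timp2 to 0.263 and 0.250 of their resting CPM (n = 3 per group). When DGAT1 was inhibited during stimulation, Mmp13 fell to 0.343 and Mmp14 to 0.648 of the level without inhibitor, whereas Adam8 and Mmp19 rose by 42.1% and 39.6%. Timp1 and Timp2 were called higher as well (36.2% and 22.6%), but neither call held without replicate 2 of IFNγ + LPS + DGAT1i, and that of Timp1 did not hold with DESeq2.

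Matrix metalloproteases are zinc-dependent endopeptidases that are made as inactive precursors and between them cut collagens, elastin, gelatin and many other proteins outside the cell. Tissue inhibitors of metalloproteases bind the active site of these enzymes, so that the balance of protease and inhibitor is commonly taken as a measure of matrix turnover. ADAM proteins cut other membrane proteins off the cell surface, and Adam17 is best known in macrophages as the convertase that releases TNF. DGAT1, the target of the inhibitor, catalyses the last step of triacylglycerol synthesis.

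Bone marrow of C57BL/6 mice, 6 to 8 weeks old and with no genetic change stated, was cultured with CSF-1 (20 ng/ml) for 7 days, and CSF-1 stayed in the medium of all 4 groups of 3 libraries. M0 macrophages received nothing else, and the IFNγ + LPS group received IFNγ (50 ng/ml) and LPS (20 ng/ml) for 18 h. The other two groups, M0 + DGAT1i and IFNγ + LPS + DGAT1i, were treated with the DGAT1 inhibitor T863 (50 μM) in addition. The descriptions of 2 of the 3 M0 + DGAT1i libraries give another compound number; both were read as T863, as the source names state. The labels do not say whether the libraries of a group came from separate animals or cultures, so p-values measure the spread between these libraries only.

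Gene counts summed to 4996014 in the smallest library and 6621671 in the largest, and 1 CPM (a read count scaled to library size and by edgeR's TMM method) was worth 4.28 to 7.58 reads. All 8 macrophage markers checked were present in every group. They summed to 13131 to 14358 CPM in M0 and 16054 to 18075 CPM in M0 + DGAT1i. With IFNγ + LPS the sum was 8323 to 8980 CPM without and 7923 to 8891 CPM with DGAT1i. Nos2 and Il12b, markers of stimulation, had no read in any of the 6 unstimulated libraries, and the 5 markers of stimulation summed to 2.41 to 5.99 CPM without and 20088 to 23970 CPM with IFNγ + LPS. Markers of fibroblasts (8 genes, at most 2.32 CPM summed in a library) and of B and T cells (6 genes, at most 0.749 CPM) were at or near 0. The 6 dendritic cell markers summed to at most 0.835 CPM in M0, 8.43 to 12.4 CPM in IFNγ + LPS and at most 7.47 CPM in IFNγ + LPS + DGAT1i, where Ccr7 had 0, 53 and 59 reads and Xcr1 1, 86 and 12 reads (Xcr1 with DGAT1i, adjusted p = 4.93e-07), and their part in the values of the members was not tested. The 7 osteoclast markers, mostly Atp6v0d2, summed to between 185 and 572 CPM. These are bulk libraries, in which fewer cells of a type and less RNA per cell cannot be told apart.

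**Figure D1:**
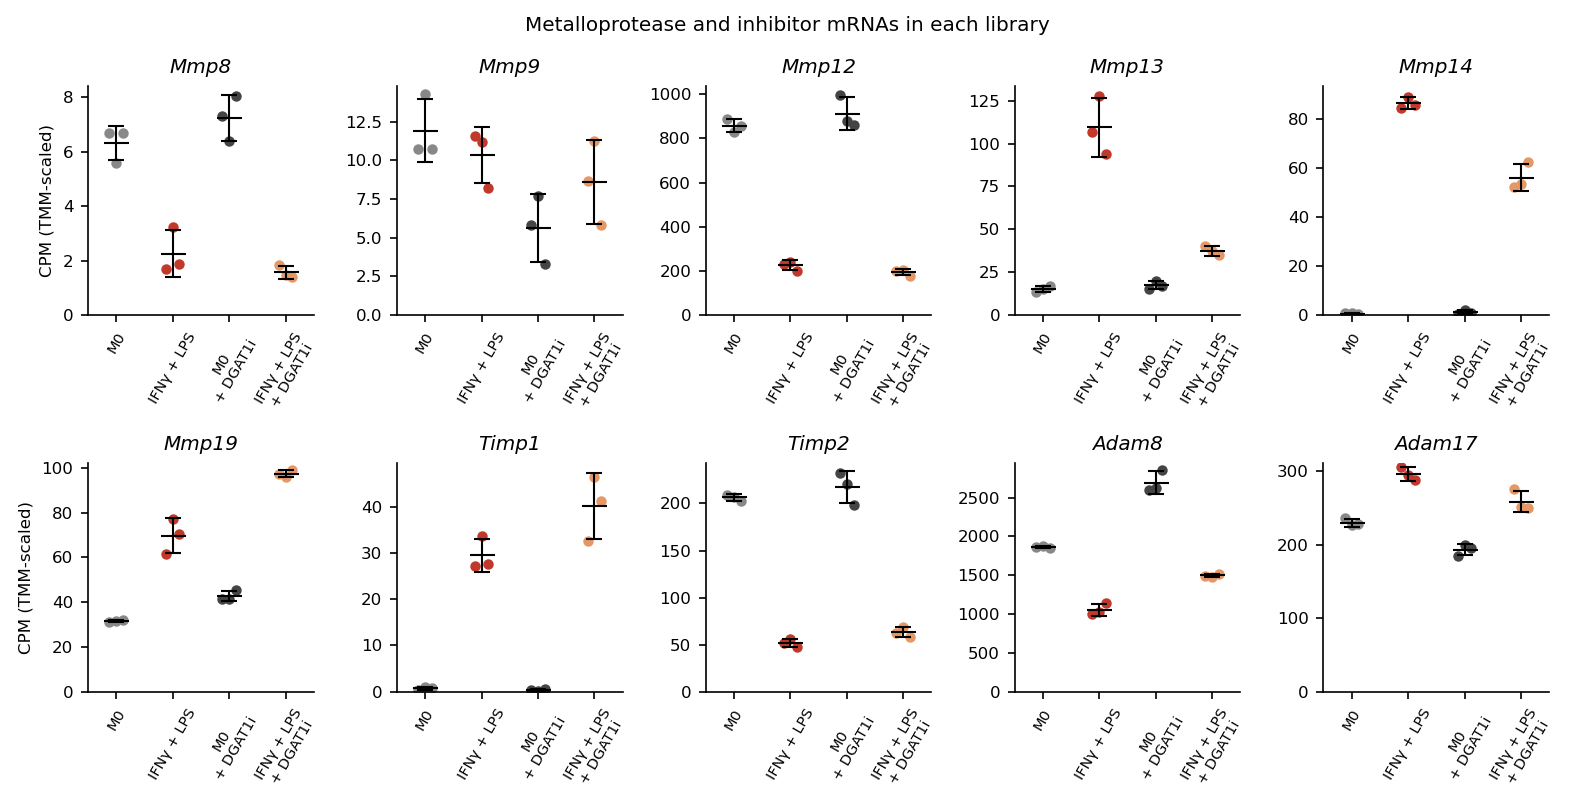
CPM of each of the 10 genes (y axis, linear, with its own scale per gene) in the 12 libraries (coloured points) of the 4 groups (x axis); horizontal bars and whiskers are the mean and SD of 3 libraries. Mmp13, Mmp14, Mmp19 and Timp1 were higher with IFNγ + LPS than in M0, Mmp8, Mmp12, Timp2 and Adam8 were lower, and Mmp13 with IFNγ + LPS ranged from 93.8 to 128 CPM without and from 34.8 to 40.4 CPM with DGAT1i.

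Of the 10 genes, 9 changed between M0 and IFNγ + LPS at an adjusted p under 0.05 (quasi-likelihood test of edgeR, Benjamini-Hochberg adjustment across all genes), at a background of 73.3% of the 11760 genes tested. By direction, 5 rose, against 37.1% of all genes, and 4 fell, against 36.2%, and the median log2 change of the members was 0.08, against 0.01 for all genes. Without TMM scaling, by library size only, the median of all genes moved to -0.46, 4 members were called higher and 5 lower, and the share of higher calls among all genes called went from 50.6% to 25.0%. Each change below is given with TMM scaling.

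Mmp13, a collagenase that cuts fibrillar collagens, lies on chromosome 9 (chr9:7272514-7283331, plus strand, GRCm38). Its level was 13.7, 15.1 and 16.9 CPM in the M0 libraries and 107, 128 and 93.8 CPM in the IFNγ + LPS libraries. All stimulated libraries lay above all resting ones, and the log2 change was 2.85 ± 0.11 (SE, n = 3 per group, adjusted p = 7.92e-25). With DGAT1i, Mmp13 measured 15.3, 19.9 and 16.9 CPM in M0 and 40.4, 37.6 and 34.8 CPM in IFNγ + LPS. In stimulated macrophages the groups with and without inhibitor were far apart, the log2 change being -1.54 ± 0.10 (SE, adjusted p = 1.54e-15), while in M0 the libraries overlapped (0.19 ± 0.14, adjusted p = 0.352). The level with both stimuli and inhibitor stayed above that of every unstimulated library.

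Mmp14, a membrane-type protease that activates other metalloproteases at the cell surface (chr14:54431612-54445364, plus strand), had 5, 6 and 3 reads in M0, or 0.418 to 0.799 CPM. In IFNγ + LPS it reached 84.4, 89.1 and 86.0 CPM from 401, 495 and 459 reads. The groups did not overlap, and the log2 change of 7.02 ± 0.18 (SE, adjusted p = 1.70e-39) was the largest of the 10 genes. DGAT1i brought the stimulated level to 52.3, 53.4 and 62.3 CPM, below each library without inhibitor (log2 change -0.63 ± 0.09, adjusted p = 5.99e-08). In M0 with DGAT1i, 5, 15 and 8 reads were counted, which overlaps with M0 (0.94 ± 0.45, adjusted p = 0.127); without replicate 1 of M0 + DGAT1i the adjusted p was 0.0441.

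Mmp12, the macrophage elastase (chr9:7344381-7369499, plus strand), was the most abundant of the 6 matrix metalloprotease mRNAs in M0, with 886, 829 and 857 CPM. Stimulated libraries held 233, 243 and 200.4 CPM, less than any resting one, for a log2 change of -1.93 ± 0.07 (SE, adjusted p = 1.02e-24). With DGAT1i the stimulated level was 200.5, 206 and 178 CPM, and the groups overlapped although the test was passed (-0.21 ± 0.07, adjusted p = 0.0194). That call was lost when an IFNγ + LPS library was left out (replicate 1, adjusted p = 0.0754, or replicate 2, 0.127) and without replicate 3 of IFNγ + LPS + DGAT1i (adjusted p = 0.125). In M0, 996, 878 and 860.5 CPM with DGAT1i overlapped with the untreated libraries (0.09 ± 0.06, adjusted p = 0.319).

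Mmp19, a protease of basement membrane proteins (chr10:128790910-128800824, plus strand), was raised by each treatment and more by both. It measured 31.1, 31.6 and 32.0 CPM in M0, 41.3, 41.5 and 45.3 CPM in M0 + DGAT1i, 61.7, 77.0 and 70.4 CPM in IFNγ + LPS and 97.2, 96.0 and 99.0 CPM in IFNγ + LPS + DGAT1i. No group overlapped with the next in this order. The log2 changes were 1.15 ± 0.08 for IFNγ + LPS (adjusted p = 1.34e-18), 0.48 ± 0.07 for DGAT1i in IFNγ + LPS (adjusted p = 9.11e-07) and 0.44 ± 0.08 for DGAT1i in M0 (adjusted p = 5.18e-05). The exons of Mmp19 share 789 bases with Tmem198b on the opposite strand, on which 832 reads were counted over the 12 libraries, against 4080 on Mmp19; whether the counting used strand is not stated.

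Mmp8 and Mmp9 are the collagenase and the gelatinase best known from neutrophil granules, and both were low here. Mmp8 (chr9:7558456-7568485, plus strand) had 46, 42 and 48 reads in M0 and 8, 18 and 10 reads in IFNγ + LPS, or 5.59 to 6.68 against 1.68 to 3.24 CPM. Its libraries did not overlap between these groups, with a log2 change of -1.45 ± 0.26 (SE, adjusted p = 2.81e-06). DGAT1i left Mmp8 at 6.39 to 8.05 CPM in M0 and 1.40 to 1.85 CPM in IFNγ + LPS, both overlapping with the libraries without inhibitor (adjusted p = 0.493 and 0.323).

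Mmp9 (chr2:164940780-164955850, plus strand) was the one member not called for IFNγ + LPS, with 10.8, 14.3 and 10.7 CPM in M0 and 11.6, 11.2 and 8.24 CPM after stimulation (log2 change -0.21 ± 0.21, adjusted p = 0.365). By library size only it was called lower (-0.68, adjusted p = 0.00313). DGAT1i in M0 brought it to 5.85, 7.67 and 3.30 CPM, below each untreated library, for a log2 change of -1.10 ± 0.22 (adjusted p = 3.28e-04). In IFNγ + LPS + DGAT1i it measured 8.65, 11.3 and 5.84 CPM, of which 2 lay within the range of the stimulated libraries without inhibitor and the lowest lay under it (-0.25 ± 0.24, adjusted p = 0.488).

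Neutrophil markers were measured beside Mmp8 and Mmp9. Of a list of 14, between 9 and 12 had a read in a group, Ly6g and Retnlg had none in any library, and Elane, Mpo, Prtn3 and Ctsg had at most 10 reads each in a group. The list summed to 54.2 to 63.9 CPM in M0, 53.9 to 57.3 CPM in M0 + DGAT1i, 211 to 235 CPM in IFNγ + LPS and 226 to 244 CPM in IFNγ + LPS + DGAT1i. The list includes the metalloprotease Mmp25, at 15.0 to 19.1 CPM in IFNγ + LPS. Most of the sum in stimulated libraries was Csf3r, the receptor for G-CSF, at 188 ± 7.86 CPM without and 140.4 ± 12.5 CPM with DGAT1i (mean ± SD, n = 3). With IFNγ + LPS the granule protein genes Ngp (log2 change -2.60, adjusted p = 9.28e-10) and Ltf (-2.93, adjusted p = 4.55e-10) fell, as Mmp8 did, while Csf3r rose (2.94, adjusted p = 7.62e-39) and S100a8 (0.34, adjusted p = 0.0961) and S100a9 (-0.36, adjusted p = 0.186) were not called. Ngp and the calprotectin subunit S100a8 rose with DGAT1i in IFNγ + LPS, from 1.36 to 9.18 CPM (adjusted p = 1.45e-08) and from 9.13 to 34.5 CPM (adjusted p = 9.20e-16), where Mmp8 had a lower mean and no call, and their part in the Mmp8 and Mmp9 values was not tested.

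Timp1 (chrX:20870166-20874735, plus strand), an inhibitor of most secreted metalloproteases, had 3, 7 and 6 reads in M0 and 129, 187 and 147 in IFNγ + LPS. The levels were 0.436, 0.932 and 0.835 CPM and 27.2, 33.7 and 27.5 CPM, with no overlap and a log2 change of 5.28 ± 0.23 (SE, adjusted p = 1.50e-27). DGAT1i in stimulated macrophages gave 32.5, 46.5 and 41.3 CPM, of which the lowest lay within the range of the libraries without inhibitor (log2 change 0.44 ± 0.12, adjusted p = 0.00307). The call was lost without replicate 2 of IFNγ + LPS + DGAT1i (0.31, adjusted p = 0.0819) and with DESeq2 (0.44, adjusted p = 0.0545). In M0 + DGAT1i only 3, 1 and 4 reads were counted, and a difference from M0 was not detectable at this depth (adjusted p = 0.256).

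Timp2 (chr11:118301069-118355740, minus strand), which with Mmp14 also takes part in the activation of the Mmp2 precursor, went the other way. It measured 209.5, 207 and 203 CPM in M0 and 51.4, 55.6 and 47.8 CPM in IFNγ + LPS, the latter all lower (log2 change -2.0 ± 0.07, adjusted p = 4.65e-33). With DGAT1i the stimulated libraries held 62.6, 68.8 and 58.4 CPM, each above those without inhibitor (0.30 ± 0.08, adjusted p = 0.00396), a call lost without replicate 2 of IFNγ + LPS + DGAT1i (0.22, adjusted p = 0.0622). In M0 the levels with DGAT1i, 232, 221 and 199 CPM, overlapped with those without (0.07 ± 0.06, adjusted p = 0.390).

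Adam8 (chr7:139978932-139992562, minus strand), a sheddase of leukocytes, had the most reads of the 10 genes. Its level was 1864, 1877 and 1844 CPM in M0, 997, 1025 and 1138 CPM in IFNγ + LPS, 2599, 2617 and 2857 CPM in M0 + DGAT1i and 1492, 1481 and 1519 CPM in IFNγ + LPS + DGAT1i. None of these groups overlapped with another. Stimulation lowered Adam8 by 0.82 ± 0.05 on the log2 scale (log2 change -0.82, adjusted p = 1.73e-20), and DGAT1i raised it by 0.53 ± 0.05 in M0 (adjusted p = 3.10e-12) and by 0.51 ± 0.05 in IFNγ + LPS (adjusted p = 2.64e-11). The summed osteoclast markers were in the same order as Adam8 in M0 + DGAT1i (493 to 572 CPM), M0 (359 to 437 CPM), IFNγ + LPS + DGAT1i (229.5 to 265 CPM) and IFNγ + LPS (185 to 199 CPM), with Calcr at 0 in all groups but IFNγ + LPS. That order was set by Atp6v0d2 (387 CPM in M0 and 143 CPM in IFNγ + LPS), while Acp5 (log2 change 2.82, adjusted p = 1.06e-24) and Ocstamp (2.36, adjusted p = 5.14e-07) rose with IFNγ + LPS, opposite to Adam8, Dcstamp fell (-0.89, adjusted p = 0.00349) and Ctsk was not called (0.32, adjusted p = 0.164). With DGAT1i in IFNγ + LPS Acp5 (0.71, adjusted p = 1.45e-07) and Atp6v0d2 (0.27, adjusted p = 0.0105) rose, as Adam8 did. Ocstamp (0.66, adjusted p = 0.069), Dcstamp (-0.62, adjusted p = 0.224) and Ctsk (-0.07, adjusted p = 0.86) were not called there. With DGAT1i in M0, Atp6v0d2 (0.43, adjusted p = 2.96e-05) and Ctsk (0.61, adjusted p = 0.0109) rose. Acp5 (0.11, adjusted p = 0.763), Ocstamp and Dcstamp were not called in M0. The part of these markers in the Adam8 values was not tested.

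Adam17 (chr12:21323509-21373632, minus strand) varied least between groups, by the ratio of the highest to the lowest group mean. It measured 236.5, 227 and 228 CPM in M0, 306, 295 and 288 CPM in IFNγ + LPS, 185, 200 and 195 CPM in M0 + DGAT1i and 275, 251 and 249.6 CPM in IFNγ + LPS + DGAT1i. Stimulated libraries lay above resting ones (log2 change 0.36 ± 0.05, adjusted p = 2.17e-08), a direction that turned by library size only (-0.11, adjusted p = 0.0659), although relative to the median of all genes the value was then 0.36. DGAT1i lowered it in M0 (-0.25 ± 0.05, adjusted p = 2.04e-04) and in IFNγ + LPS (-0.20 ± 0.05, adjusted p = 0.00398), and the inhibitor groups did not overlap with their controls. Its exons share 311 bases with Iah1 on the opposite strand, on which 1656 reads were counted.

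**Figure D2:**
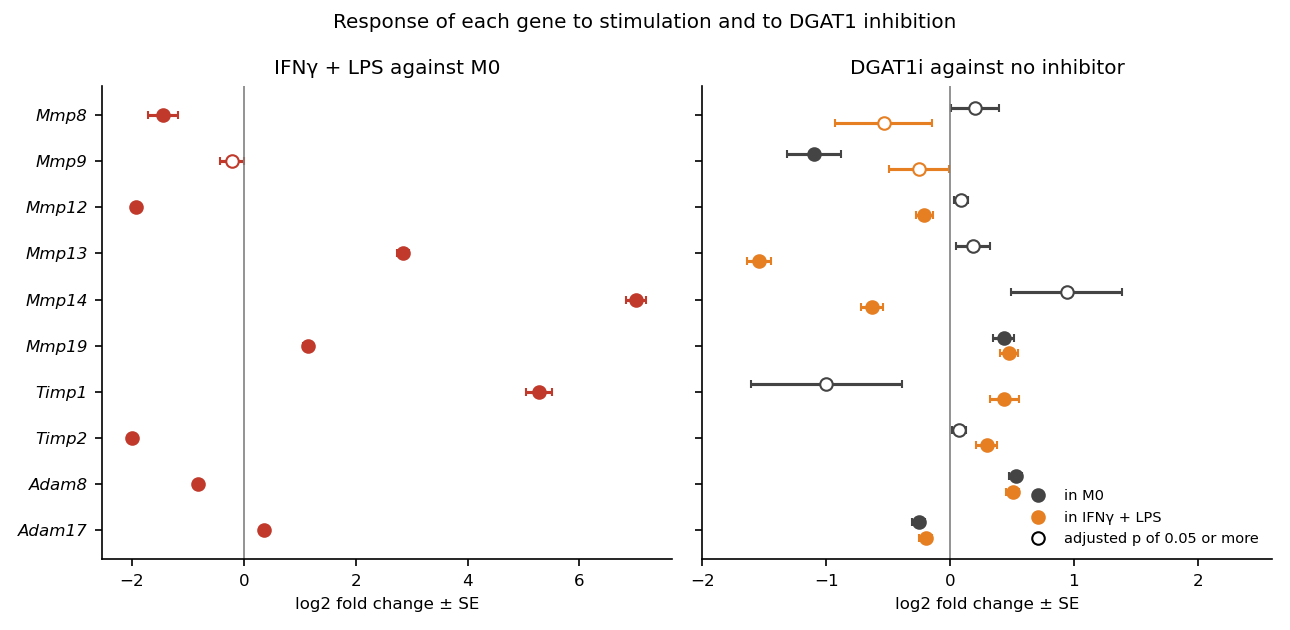
Log2 fold change of each gene with its standard error (x axes) from edgeR for IFNγ + LPS against M0 (left) and for DGAT1i in M0 (dark) and in IFNγ + LPS (orange, right); open circles mark an adjusted p of 0.05 or more. The responses of Adam8, Mmp19 and Adam17 to DGAT1i lie side by side in both states, and those of Mmp13 and Mmp14 do not; by library size only, Adam17 in the left panel falls below 0.

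To ask whether the inhibitor acted alike in resting and stimulated macrophages, the counts and the responses themselves were compared. DGAT1i changed 8 of the 10 genes in IFNγ + LPS, against 29.8% of all genes tested, with 4 higher (background 13.5%) and 4 lower (16.3%). With a library left out the count was 6 to 8, and the members were chosen with earlier results of these data known. The median log2 change was -0.20 for the members and -0.01 for all genes. In M0 DGAT1i changed 4, against 24.4% of all genes, with Adam8 and Mmp19 higher (background 11.0%) and Mmp9 and Adam17 lower (13.4%), and medians of 0.14 and 0.00. The share of higher calls among all genes called in M0 was 45.2% with TMM and 29.7% by library size only, whereas the member calls were 2 higher and 2 lower with either. With M0 + DGAT1i represented by the library described as T863 alone, an alternative chosen after the data were seen in which the spread of the lone library was assumed to be that of the other groups, the count of members changed in M0 was again 4.

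The response to DGAT1i differed between the 2 states for 3 of the 10 genes, against 18.5% of all genes. Mmp13 differed by -1.73 ± 0.17 on the log2 scale (IFNγ + LPS minus M0, SE, adjusted p = 4.94e-10), Mmp14 by -1.57 ± 0.46 (adjusted p = 0.0101) and Mmp12 by -0.30 ± 0.09 (adjusted p = 0.0189). The Mmp14 value rests on few reads in M0, and it was lost without replicate 2 of M0 + DGAT1i (-1.03, adjusted p = 0.211) and with the library described as T863 alone (-0.63, adjusted p = 0.690). The Mmp12 call was lost without replicate 1 or 2 of IFNγ + LPS, replicate 1 of M0 + DGAT1i or replicate 3 of IFNγ + LPS + DGAT1i (adjusted p between 0.0542 and 0.0722).

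For the other members no difference between the states was called. The values for Adam8, Mmp19 and Adam17 were -0.02 ± 0.07, 0.04 ± 0.11 and 0.06 ± 0.08 (SE), so that their response was of similar size in both. Those of Timp1 (1.44 ± 0.63, adjusted p = 0.104), Mmp9 (0.85 ± 0.33, adjusted p = 0.0738) and Mmp8 (-0.74 ± 0.43, adjusted p = 0.251) had wide errors, and that of Timp2 was 0.22 ± 0.10 (adjusted p = 0.113). The Mmp9 difference passed the threshold without replicate 2 of M0 + DGAT1i (adjusted p = 0.0105) or replicate 3 of IFNγ + LPS + DGAT1i (adjusted p = 0.0195), and also with the replicate number as a block (0.84, adjusted p = 0.0156), without a filter on low counts (0.0272) and by library size only (0.0496).

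To compare genes with one another, levels were divided by the length of the longest protein-coding transcript, which runs from 883 bases in Timp1 to 4469 bases in Adam17. In M0 the order was Adam8 (597 CPM per kilobase), Mmp12 (238), Timp2 (55.7), Adam17 (51.5), Mmp19 (9.28), Mmp13 (5.68), Mmp9 (3.75), Mmp8 (2.61), Timp1 (0.832) and Mmp14 (0.200), and no neighbours overlapped in this order. In IFNγ + LPS it was Adam8 (338), Adam17 (66.4), Mmp12 (62.5), Mmp13 (41.0), Timp1 (33.4), Mmp14 (26.7), Mmp19 (20.5), Timp2 (13.9), Mmp9 (3.25) and Mmp8 (0.934). There Adam17 and Mmp12, and Mmp13 and Timp1, overlapped between libraries.

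The 6 metalloproteases summed to 259 ± 7.33 CPM per kilobase in M0 and 155 ± 14.5 in IFNγ + LPS (mean ± SD, n = 3). Mmp12 made up 91.7% ± 0.509 of that sum in M0 and 40.4% ± 1.60 in IFNγ + LPS, where Mmp13 held 26.4% ± 1.65, Mmp14 17.3% ± 1.33 and Mmp19 13.3% ± 1.40. With DGAT1i during stimulation the sum was 117 ± 3.73 CPM per kilobase. Mmp12 held 46.0% ± 2.115 of it, Mmp19 24.4% ± 1.17, Mmp14 14.8% ± 1.94 and Mmp13 12% ± 0.640. In M0 + DGAT1i the sum was 277 ± 19.3, and Mmp12 held 91.2% ± 0.967 of it.

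Timp1 was 1.47% ± 0.532 of the sum of the inhibitors Timp1 and Timp2 per kilobase in M0 and 70.5% ± 1.43 in IFNγ + LPS. With DGAT1i these shares were 0.697% ± 0.418 and 72.5% ± 3.38, so that the inhibitor mRNA that predominated was Timp2 in all 6 unstimulated and Timp1 in all 6 stimulated libraries. The summed inhibitor level was 56.5 ± 0.778 CPM per kilobase in M0, 47.3 ± 5.08 in IFNγ + LPS and 62.5 ± 8.77 in IFNγ + LPS + DGAT1i.

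**Figure D3:**
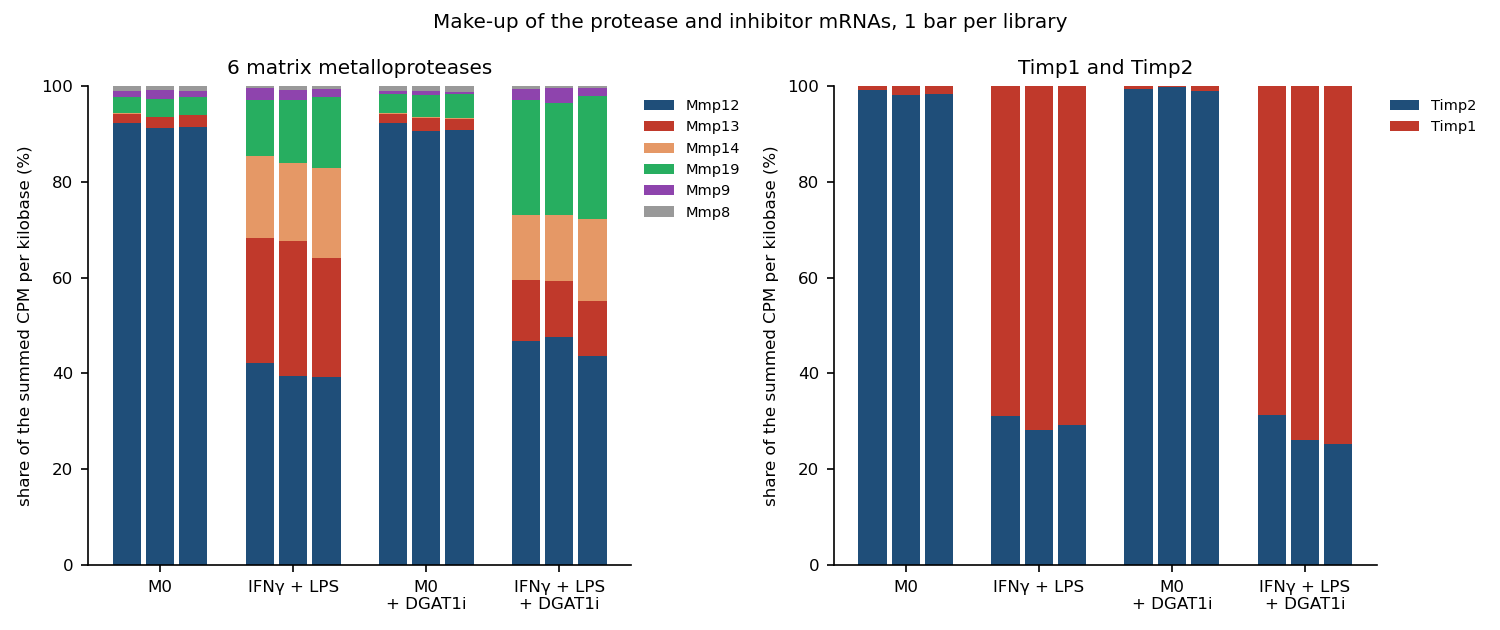
Share of each gene (y axis, %) in the summed CPM per kilobase of the 6 matrix metalloproteases (left) and of Timp1 and Timp2 (right), with 1 bar per library and 3 libraries per group (x axis). Mmp12 predominated in unstimulated libraries, Mmp13, Mmp14 and Mmp19 took larger shares with IFNγ + LPS, and Timp1 made up 68.6% to 74.8% of the inhibitor sum in stimulated libraries.

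Which length is used bears on some of these orders. Over all exons of a gene (7237 bases for Mmp12 in place of 3607), a choice added after the data were seen, Mmp13 stood at 1.31 ± 0.10 times Mmp12 in IFNγ + LPS, against 0.653 ± 0.050 times by the longest coding transcript. The ratio of Mmp13 to Mmp12 rose with IFNγ + LPS by either length (from 0.0239 and 0.0480 in M0), and the fall of the metalloprotease sum with IFNγ + LPS and the ratio of Timp1 to Timp2 (2.40 and 2.50) also held by both.

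Mmp13, Mmp12 and Mmp8 belong to a cluster on chromosome 9 with 9 Mmp genes annotated as protein coding in GENCODE M21, which spans 427 kilobases (chr9:7272514-7699585). Of these, 4 were tested and 4 had no read in any library. Mmp13 and its neighbour Mmp12, 61049 bases apart, moved in opposite directions with IFNγ + LPS (2.85 and -1.93 on the log2 scale). Mmp8 and Mmp27, another metalloprotease gene 2910 bases downstream of it, both fell (-1.45 and -3.49), Mmp27 from 16.0 to 1.36 CPM (adjusted p = 7.12e-16). With DGAT1i in IFNγ + LPS the log2 values of the 4 in order along the chromosome were -1.54, -0.21, -0.54 and 0.17, of which those of Mmp13 and Mmp12 passed the test.

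Promoters were compared because the cluster neighbours Mmp13 and Mmp12 moved apart and because Mmp14 and Timp1 had the largest rises. RefSeq promoters on GRCm38.p6 (250 bases before to 50 after a start) were matched for 8 of the 10 genes. The 250 bases before the start are printed 5′ to 3′, all on the plus strand, for Mmp13 (chr9:7272264-7272513), for the Mmp12 start whose promoter held an AP-1 match (chr9:7347124-7347373), for Mmp14 (chr14:54431348-54431597) and for Timp1 (chrX:20869916-20870165). Capitals mark AP-1 matches and, in the Mmp13 promoter only, an ISRE match further from the start.
Mmp13: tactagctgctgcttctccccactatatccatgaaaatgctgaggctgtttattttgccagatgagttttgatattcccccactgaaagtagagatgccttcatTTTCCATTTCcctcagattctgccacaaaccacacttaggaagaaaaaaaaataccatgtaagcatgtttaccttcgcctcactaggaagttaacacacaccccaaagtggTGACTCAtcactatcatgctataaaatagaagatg
Mmp12: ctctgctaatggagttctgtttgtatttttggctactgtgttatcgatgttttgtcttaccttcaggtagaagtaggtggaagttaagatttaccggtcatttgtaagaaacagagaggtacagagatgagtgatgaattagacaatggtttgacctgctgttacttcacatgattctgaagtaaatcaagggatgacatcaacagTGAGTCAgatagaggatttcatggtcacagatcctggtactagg
Mmp14: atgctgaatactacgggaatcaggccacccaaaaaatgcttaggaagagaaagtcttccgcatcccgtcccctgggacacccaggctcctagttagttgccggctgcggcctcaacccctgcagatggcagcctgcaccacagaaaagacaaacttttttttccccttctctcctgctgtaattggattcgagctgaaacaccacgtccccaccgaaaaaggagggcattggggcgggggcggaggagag
Timp1: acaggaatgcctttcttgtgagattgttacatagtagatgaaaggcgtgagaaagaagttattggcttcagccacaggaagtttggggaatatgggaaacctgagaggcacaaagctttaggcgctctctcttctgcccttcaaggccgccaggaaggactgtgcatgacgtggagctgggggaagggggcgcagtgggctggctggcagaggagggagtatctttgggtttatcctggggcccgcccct

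Each promoter of 300 bases was searched on both strands for AP-1 (TGANTCA), for an interferon-stimulated response element (ISRE, GAAA followed after any 2 bases by GAAA), for PU.1 (GAGGAA), for a TATA box (TATAAA) and for NF-kB, which was searched by its 10-letter consensus. AP-1 matched in Mmp13 (35 to 29 bases before the start) and in Mmp12 (44 to 38 bases before its start), and in 7.79% of 32544 mouse promoters of this length. The ISRE match in Mmp13 compares with 3.45% of all promoters. PU.1 matched in Mmp8 and at another start of Mmp12 (28.1% of all promoters). TATA (13.6%) matched in Mmp13, 16 to 11 bases before the start. The TATA match in Mmp12 lay 4 to 9 bases after its start, and that in Mmp8, on the minus strand, spanned the start (-3 to 2). NF-kB (4.53%) matched in no member promoter, and none of these motifs matched in Mmp14, Timp1, Timp2, Adam8 or Adam17. A match is a run of letters and not a measured site, and no match says only that these letters are not in this window.

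The genes whose level followed each member most closely over the 12 libraries are given as a description, since the libraries share 4 groups. By Pearson's r of log2 CPM, Mmp12 was closest to Sgsh and Man2b1, lysosomal enzymes (r = 0.998 and 0.998), Timp1 to Aldh1b1 and Pml (0.998 and 0.998) and Mmp14 to Rgl1 (0.997), Rnf19b (0.997) and Batf2 (0.996). Fyb and Seh1l (0.987 each) were among the 3 closest to Mmp13. Mmp19 was closest to Mkrn1 (0.993) and Zdhhc12, Timp2 to Clcn5 (0.997), Adam8 to Nceh1 (0.984), Adam17 to Rbm43 (0.983) and Mmp8 to Rpl7a (0.986). Mmp9 had the weakest nearest neighbour, Ptges3-ps at 0.903.

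Other genes of the same families were mostly silent. The counts of called genes in the lists that follow stand against 37.1% of all genes higher and 36.2% lower with IFNγ + LPS, 13.5% and 16.3% with DGAT1i in IFNγ + LPS and 11.0% and 13.4% with DGAT1i in M0. Of 17 further matrix metalloproteases, 8 had no read in any library and 2 were tested. Mmp25, a membrane-anchored protease of leukocytes, had 0, 0 and 1 reads in M0 and 71, 106 and 101 reads in IFNγ + LPS, a ratio of 383 (exact 95% counting interval 68.3 to 15198), and it was not called for DGAT1i in IFNγ + LPS (0.14 ± 0.16, adjusted p = 0.559). Mmp27, given above, was the other. Neither was called for DGAT1i in M0 (adjusted p = 0.540 and 0.421).

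Among 32 other ADAM genes 6 were tested, of which 1 rose and 3 fell with IFNγ + LPS (background 37.1% and 36.2%), or 0 and 4 by library size only. Adam15, a widely expressed adhesion-related ADAM, fell from 303, 323 and 306 to 162, 158 and 150 CPM (log2 change -0.99 ± 0.06, adjusted p = 9.04e-23), and Adam10, the other main sheddase of macrophages beside Adam17, from 158 to 99.9 CPM on average (-0.66 ± 0.06, adjusted p = 2.17e-14). Adam19 fell as well (46 reads in M0, 7 in IFNγ + LPS). Adam33 rose from 4.31 to 8.04 CPM (adjusted p = 2.01e-04) but was not called by library size only (adjusted p = 0.0627). DGAT1i in IFNγ + LPS raised Adam15 to 199 CPM (0.34 ± 0.06, adjusted p = 7.55e-06) and lowered Adam9 from 231 to 179 CPM (-0.37 ± 0.05, adjusted p = 2.33e-07) and Adam33 to 4.05 CPM (adjusted p = 9.27e-04), and in M0 it lowered Adam9 (-0.24 ± 0.05, adjusted p = 3.29e-04). Of 19 ADAMTS genes, which encode secreted relatives of the ADAM proteins, 2 were tested. Adamts10 fell from 39.7 to 9.54 CPM with IFNγ + LPS (-2.06 ± 0.12, adjusted p = 9.73e-22). Adamts6, with 13 reads in M0 and 28 in IFNγ + LPS, was called higher (adjusted p = 0.00818). That call was lost by library size only, with DESeq2, without replicate 3 of M0 and without replicate 1 of IFNγ + LPS (adjusted p = 0.0610, 0.0544, 0.0524 and 0.0655).

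Of 11 other inhibitors and surface regulators 5 were tested; 3 rose and 2 fell with IFNγ + LPS (background 37.1% and 36.2%), or 2 and 3 by library size only, and 3 rose and 2 fell with DGAT1i in IFNγ + LPS (background 13.5% and 16.3%). Of those 5, the calls of Cd44 (adjusted p = 0.0592 with replicate 3 of IFNγ + LPS left out, 0.0583 without replicate 2 of IFNγ + LPS + DGAT1i) and of Lcn2 were lost in some settings, that of Lcn2 with DESeq2 (0.0996), with replicate 2 of IFNγ + LPS left out (0.0893) and with replicate 1 of IFNγ + LPS + DGAT1i left out (0.116). Thbs1 encodes thrombospondin 1, a matrix glycoprotein that binds metalloproteases, and measured 17.6, 15.3 and 16.1 CPM in M0, 353, 367 and 463 CPM in IFNγ + LPS and 139, 175 and 197 CPM with DGAT1i in addition. It thus rose by 4.59 ± 0.18 on the log2 scale (adjusted p = 7.29e-09) and was lower with the inhibitor by 1.22 (log2 change -1.22 ± 0.14, adjusted p = 1.52e-04). Lcn2, whose product binds Mmp9, rose from 2.63 to 38.9 CPM (adjusted p = 9.99e-30). Bsg, an inducer of metalloproteases, was higher with IFNγ + LPS (0.35 ± 0.05) but lower by library size only (-0.12), and rose with DGAT1i in IFNγ + LPS (0.28 ± 0.05, adjusted p = 5.23e-05). Reck, a membrane inhibitor with 6 reads in IFNγ + LPS and 18 with DGAT1i (adjusted p = 0.0362), lost its call without replicate 2 or 3 of either group (adjusted p between 0.0718 and 0.174), with DESeq2 (0.0919) and without a filter on low counts (0.0757).

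Plasminogen activation feeds into metalloprotease activation, and of its 11 genes, convertases included, 5 were tested. With IFNγ + LPS 4 were called higher and 1 lower (background 37.1% and 36.2%), or 2 and 2 by library size only, where Furin (-0.22) and Pcsk7 (-0.05) turned; Pcsk7 was named after its value was seen. Plau, the urokinase, fell from 1254, 1245 and 1280 to 115, 139 and 122 CPM (-3.33 ± 0.06, adjusted p = 9.91e-47), and its receptor Plaur rose from 56.2 to 127 CPM (1.17 ± 0.07, adjusted p = 3.26e-22). DGAT1i in IFNγ + LPS raised Plaur to 169 CPM (0.42 ± 0.06, adjusted p = 4.07e-07) and Furin, the convertase that removes the propeptide of Mmp14, Adam17 and others, from 113 to 170 CPM (0.58 ± 0.07, adjusted p = 2.24e-10). In M0 it lowered Plau (-0.38 ± 0.05, adjusted p = 3.68e-08) and raised Plaur and Furin.

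Of 23 cofactors and substrates of Adam17 18 were tested; 10 rose and 6 fell with IFNγ + LPS (background 37.1% and 36.2%), or 8 and 9 by library size only, and DGAT1i in IFNγ + LPS raised 2 and lowered 5 (background 13.5% and 16.3%). One of those raised was Tnfrsf1b, a TNF receptor (0.15, adjusted p = 0.0256), whose call was lost without a filter on low counts (0.161), with DESeq2 (0.0521), with replicate 3 of IFNγ + LPS left out (0.178) and with replicate 2 of IFNγ + LPS + DGAT1i left out (0.317). Rhbdf2 and Rhbdf1 encode the iRhom proteins that carry Adam17 to the surface and were named after their values were seen. Rhbdf2 rose from 45.2 to 273 CPM with IFNγ + LPS (2.59 ± 0.06, adjusted p = 4.37e-41) while Rhbdf1 fell from 84 to 4 reads, and DGAT1i lowered Rhbdf2 to 234 CPM (-0.22 ± 0.05, adjusted p = 8.09e-04).

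Among the substrates, Tnf went from 38.4, 40.9 and 32.9 CPM in M0 to 688, 618 and 575 CPM in IFNγ + LPS and to 437, 368 and 354 CPM with DGAT1i in addition, where each library lay below those without inhibitor (-0.70 ± 0.08, adjusted p = 5.75e-07). The adhesion molecule Icam1 was lowered by DGAT1i from 1033 to 764 CPM in IFNγ + LPS (-0.43 ± 0.05, adjusted p = 1.96e-09) and from 35.4 to 26.4 CPM in M0 (-0.42 ± 0.08, adjusted p = 9.84e-05). Mertk, a receptor for apoptotic cells, rose with DGAT1i in M0 from 71.4 to 107 CPM (0.58 ± 0.08, adjusted p = 1.97e-07).

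**Figure D4:**
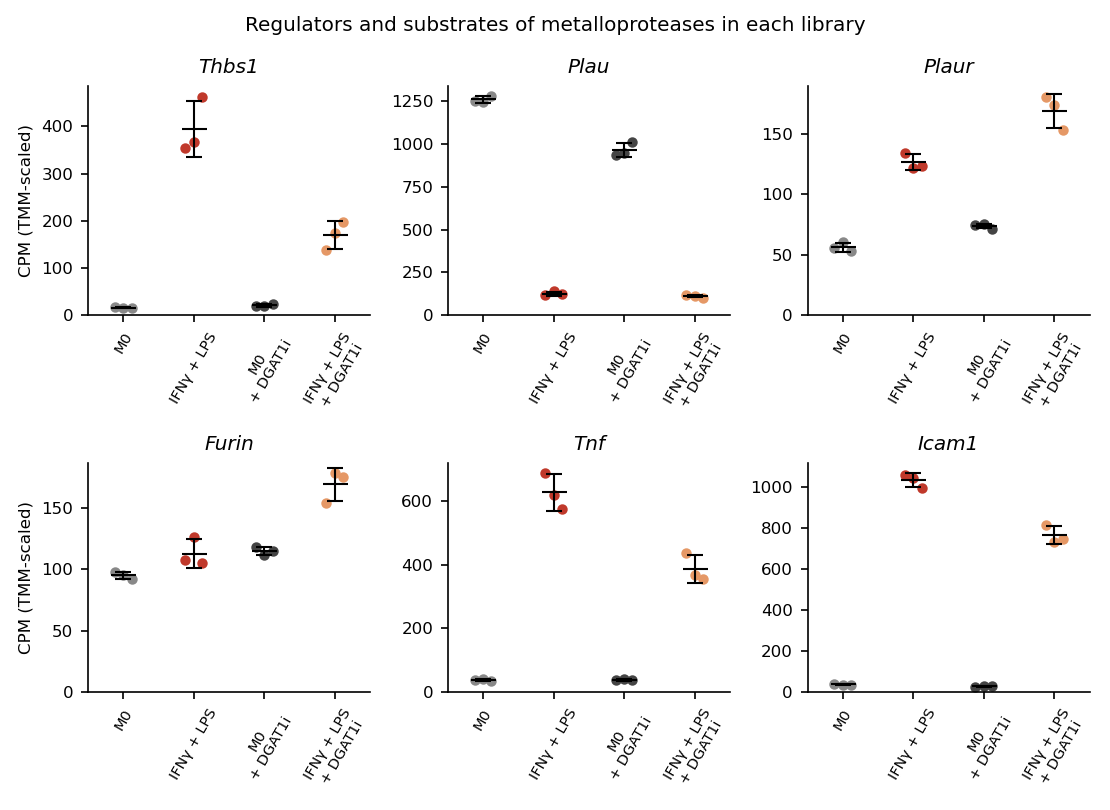
CPM (y axis, linear, own scale per gene) of 6 regulators and substrates of metalloproteases in the 12 libraries (points) of the 4 groups (x axis), with mean and SD of 3 libraries. With IFNγ + LPS, Thbs1, Tnf and Icam1 were lower with DGAT1i than without in each library, and Plaur and Furin were higher.

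Few genes of the matrix itself were expressed. Of 11 matrix proteins cut by metalloproteases 3 were tested; 1 rose and 2 fell with IFNγ + LPS, and 1 rose with DGAT1i in IFNγ + LPS. That gene was Spp1, encoding osteopontin, at 1071 CPM in M0, 573 CPM in IFNγ + LPS and 709 CPM in IFNγ + LPS + DGAT1i (0.31 ± 0.05 for DGAT1i, adjusted p = 9.44e-06). In M0, DGAT1i lowered Spp1 to 950.2 CPM (-0.17 ± 0.05, adjusted p = 0.0104), a call lost without replicate 3 of M0 and without replicate 1 or 3 of M0 + DGAT1i (adjusted p between 0.0554 and 0.0664). Fn1, encoding fibronectin, fell from 7.14 to 1.02 CPM with IFNγ + LPS (adjusted p = 2.35e-11) and from 7.14 to 3.70 CPM with DGAT1i in M0 (-0.94 ± 0.22, adjusted p = 6.48e-04), where the library described as T863 alone gave -0.72 (adjusted p = 0.123).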

How the data were processed

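RNA from 12 libraries was sequenced, 3 in each of 4 groups taken from the sample titles. The authors deposited raw read counts per gene, without normalization, as whole numbers that were made with the pipeline of their institute. Per the submitters' processing notes the build was GRCm38 and DESeq2 was used; aligner, counter and annotation release were "not given in the sources used here". The labels name a NEBNext low-input kit and the methods a stranded TruSeq kit, so reads of genes that overlap on opposite strands may not be told apart. Symbols and positions came from GENCODE M21 (GRCm38).

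The deposited counts entered edgeR 4.0.16 (R 4.3.3) after filterByExpr had left 11760 genes. TMM scaled the libraries, and glmQLFit (robust) estimated a separate mean for each of the 4 groups from all 12 of them. An adjusted p under 0.05 (quasi-likelihood test, Benjamini-Hochberg adjustment over all genes tested) was taken as a call. Standard errors are the log2 change divided by the root of the F statistic. The common biological coefficient of variation was 0.0507. Where a group had 1 to 3 reads, a ratio with an exact 95% counting interval is given, which covers counting error only. The method was tested on simulated data with 200 changed genes.

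The 10 members and the gene lists were chosen with earlier results of these data known. From each list the 3 genes with the highest mean CPM and the 2 largest called changes per contrast could be named, and for each member up to 3 genes with the highest Pearson's r of log2 CPM among genes with a mean of at least 1 CPM. The neutrophil genes Csf3r, Ngp, Ltf, S100a8 and S100a9 were named outside that rule, after their values were seen. Alternatives were DESeq2's size factors (RLE) or library size only, no filter or a mean of at least 1 CPM, DESeq2 1.42.0, a threshold of 0.1, a replicate block, a fit to the compared groups only, and each library left out in turn. A few genes and a motif are not reported here. Plots used Python 3.11.15 and matplotlib 3.10.9.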

Additional observations from a re-analysis of the deposited data

Results flagged for a closer look

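The response to DGAT1i differed between the resting and the stimulated state by edgeR's interaction test for 3 of the 10 members, by -1.73 for Mmp13, -1.57 for Mmp14 and -0.30 for Mmp12 (log2 change in IFNγ + LPS minus that in M0). Among the other genes named, the same test was passed with a negative value by Thbs1 (-1.55), Adam33 (-1.23), Csf3r (-0.70), Tnf (-0.69), Mertk (-0.48) and Rhbdf2 (-0.31). It was passed with a positive value by Ngp (3.10), Ltf (2.50), S100a8 (2.38), S100a9 (2.20), Spp1 (0.48), Adam15 (0.32) and Furin (0.31). With M0 + DGAT1i represented by the library described as T863 alone, whose spread was assumed to be that of the other groups, Thbs1 was -1.37, Tnf -0.58, Furin 0.31 and Rhbdf2 -0.31 and Mmp14 -0.63, none of them past the threshold (adjusted p between 0.0570 and 0.690); with 1 library in that group the lost calls say little about the compound named. The call of Furin was lost also with replicate 3 of IFNγ + LPS left out (adjusted p = 0.0664) and with replicate 2 of IFNγ + LPS + DGAT1i left out (0.0561).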

How the results depend on the processing

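Of 787 alternative values for the 10 members, results without a call included, 760 kept their direction and their side of the threshold. For part of the other named genes, 1423 of 1465 did, counting only results called with TMM and all libraries. Both counts include left-out libraries of groups outside a comparison and values far from the threshold, so they are no measure of robustness. By library size only, the log2 change with IFNγ + LPS turned to -0.11 for Adam17, -0.12 for Bsg and -0.22 for Furin, and 5 members differed between the DGAT1i responses in place of 3. Frmd8 (-0.19), Il6ra (-0.24) and Pcsk7 (-0.05), named after their values were seen and not among the 1465 values, turned there as well. The other values of members that turned belonged to genes without a call in that comparison. For the difference between the responses, Adam8 was 0.02 by library size only (0.0231), between -0.0665 and 0.0306 with a library left out and 0.0633 with the library described as T863 alone, and Mmp19 was between -0.0398 and 0.116 with a library left out. Mmp13 in M0 was -0.0106 with the library described as T863 alone, where 1661 genes changed with DGAT1i in M0 (2869 with all) and 1420 differed in response (2171 with all); that alternative was chosen after the data were seen. With a library left out, 9 members changed with IFNγ + LPS, 6 to 8 with DGAT1i in IFNγ + LPS and 4 to 5 in M0, and 2 to 3 differed in response. With a replicate block, 9, 8, 4 and 4 members passed, Mmp9 being the additional one (0.84, adjusted p = 0.0156), and no other member call changed. Same-numbered libraries deviated together weakly (r between -0.0217 and 0.0687 over 18 pairs, 0 over 0.1), 9 of 12 libraries correlating best with their own number, and the labels do not say what a number stands for. Depth limited Mmp14 and Timp1 in M0, with 3 to 7 reads a library, and Mmp8. The causes of the changes with settings were not tested.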
